A study of Mus musculus with 12 samples.

Results

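In brain tissue of DKK1 mice the hemisphere with an ischemic stroke (ipsilateral, here lesioned) was compared with the opposite one (contralateral, here intact) 28 days after MCAo, in which the middle cerebral artery is blocked. Members were taken by their labels as every DKK1 ipsilateral and every DKK1 contralateral library, which gave 3 and 3, or 6 of the 12 libraries of the series. DKK1 mice carried 3 alleles: Gt(ROSA)26Sortm1.1(rtTA,EGFP)Nagy, a doxycycline-dependent activator with EGFP at the ROSA26 locus; Hprttm1(tetO-Dkk1)Spdl, a Dkk1 transgene at Hprt that this activator switches on; and the Wnt reporter Tg(TCF/Lef1-lacZ)34Efu/J. The other 6 libraries came from both hemispheres of wild-type mice (C57BL6/J), 3 a hemisphere, and enter here only where the lesion of DKK1 mice is set beside that of wild-type mice. All mice of all 4 groups had MCAo and doxycycline at 200 mg/kg, with induction 3 days after MCAo, so the intact hemispheres are neither unoperated nor untreated. The labels give no age and no promoter or cell type that limits rtTA. They also leave unsaid whether each library is from its own animal, and p-values therefore cover the spread among libraries only, part of which may be technical. Since tissue was analysed in bulk, fewer cells of a type and less RNA per cell cannot be told apart, nor can more cells and more RNA per cell.

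An infarct is cleared over weeks. Microglia, the resident macrophages of the brain, and macrophages from blood take up dead cells and myelin, digest them in lysosomes and export the cholesterol, while astrocytes and fibroblasts wall the cavity off with a scar and lymphocytes gather in the lesion. The middle cerebral artery feeds the striatum and the lateral cortex, whose neurons are lost in this model. DKK1, a secreted protein that binds the Wnt co-receptors LRP5 and LRP6, blocks Wnt/beta-catenin signalling, which maintains the barrier of brain vessels.

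The DKK1 libraries held 21209920 to 26011665 counts, and the 3 libraries of a hemisphere lay far closer to each other than to the other hemisphere. On the first principal component of the 6 libraries, which held 86.2% of their variance, the intact libraries lay at −71.8, −64.7 and −72.2 and the lesioned libraries at 56.4, 74.6 and 77.6. Levels are given as library-size-scaled CPM (counts relative to library size). A value with ± after it is a log2 fold change of the lesioned over the intact hemisphere with its standard error, from an edgeR quasi-likelihood fit with 3 libraries a group, unless it is marked as a level with its SD. A gene was called higher or lower at a p under 0.05 after Benjamini-Hochberg adjustment across the 17612 genes that were tested. Dkk1 itself (chromosome 19, 30545885 to 30549496, minus strand, mm10) had 13, 5 and 4 counts in the intact and 32, 7 and 44 counts in the lesioned libraries, so the groups overlapped, and 0 counts in each wild-type library. Its difference between hemispheres did not pass (1.68 ± 0.73, edgeR adjusted p = 0.0944), but passed with the replicate number as a block (edgeR adjusted p = 0.0315), by limma on log2(TPM + 0.5) (adjusted p = 0.0499) and without DKK1 ipsilateral 2 (edgeR adjusted p = 0.0248). Without DKK1 contralateral 1 the difference of Dkk1 was 2.43 and did not pass (edgeR adjusted p = 0.0562).

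Promoter sequence, taken from RefSeq (mm10) as 250 bases before to 50 after the start of a gene, was at hand for 13460 of the genes tested, and a few stretches are shown because their genes recur below among the interferon, phagocyte and neuron results. The first 4 come from genes of the interferon response that rose, and the capitals mark the letters GAAANNGAA (on either strand, where N is any base), the core of the interferon-stimulated response element that STAT and IRF factors bind. In each stretch only 1 match is in capitals, the last before the start of the gene. The stretches of Ifit1 and Irgm1 hold further matches that are not marked. Ifit1 (chr19:34640779-34640838, plus strand) and Irgm1 (chr11:48871421-48871480, minus strand) are antiviral and anti-bacterial effectors, Gbp2 (chr3:142620579-142620638, plus strand) is a guanylate-binding protein, and Cxcl10 (chr5:92349069-92349128, minus strand) attracts T cells. The next 2 come from Ctsc (chr7:88277908-88277967, plus strand), a lysosomal protease, and Aim2 (chr1:173420465-173420524, plus strand), a sensor of DNA, both of which rose. Their capitals mark GAGGAAGT, a form of the site of PU.1, the factor that sets the identity of macrophages. The last comes from Syn1 (chrX:20921044-20921103, minus strand), a protein of synaptic vesicles that fell, and its capitals mark TGACGTCA, the cyclic AMP response element (CRE) that CREB binds.
Ifit1: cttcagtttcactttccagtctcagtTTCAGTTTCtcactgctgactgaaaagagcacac
Irgm1: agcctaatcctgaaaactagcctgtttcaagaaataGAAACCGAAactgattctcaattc
Gbp2: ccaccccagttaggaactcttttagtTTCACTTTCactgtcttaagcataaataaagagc
Cxcl10: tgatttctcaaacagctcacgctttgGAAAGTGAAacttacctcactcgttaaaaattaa
Ctsc: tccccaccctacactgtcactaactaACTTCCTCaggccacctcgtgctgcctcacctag
Aim2: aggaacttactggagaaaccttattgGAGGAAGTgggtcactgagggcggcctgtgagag
Syn1: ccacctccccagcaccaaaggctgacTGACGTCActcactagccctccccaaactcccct
The letters GAAANNGAA stood in the promoters of 17 of 24 interferon response genes (70.8%), against 7.09% of all promoters, 11.6% of those of genes that rose past 2-fold and 5.85% of those of genes that fell. The PU.1 letters were in 2.98% of all promoters, 6.5% of those of genes that rose past 2-fold and 2.0% of those of genes that fell. TGANTCA, the letters that AP-1 binds, were in 5.19%, 8.93% and 4.17% of these. The CRE letters were in 2.87% of all promoters, 0.717% of those of genes that rose past 2-fold and 3.81% of those of genes that fell. CTTTGAT, which TCF/LEF factors of the Wnt pathway bind, was in 2.58%, 3.25% and 2.3% of them. Among the 88 promoters of genes that fell past 2-fold the AP-1 letters were in 7.95% and the CRE letters in 2.27%, and the small number limits both shares. By list, the PU.1 letters were in 4 of 26 lysosome and 4 of 15 Toll-like receptor and inflammasome promoters. They were in 0 of 11 homeostatic and 0 of 19 disease-associated microglia promoters. The CRE letters were in 1 of 17 neuron and synapse promoters, 0 of 17 of glutamate and GABA receptors and 0 of 20 of neuronal ion channels. Matches were counted on both strands, no match of GAAANNGAA overlapped one of another motif, and a match describes letters only, not a bound site.

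Many genes differed between the hemispheres, and rises and falls had different sizes. Higher in the lesioned hemisphere were 4846 of 17612 genes (27.5% of those tested) and lower were 3973 (22.6%). For 10552 genes (59.9%) the 3 lesioned and the 3 intact libraries did not overlap. Of the genes that rose, 2417 did so past 2-fold, 1262 past 4-fold, 664 past 8-fold and 323 past 16-fold, with a median log2 fold change of 0.996. Of the genes that fell, 129 did so past 2-fold, 7 past 4-fold and 2 past 8-fold, and 3257 (82.0%) stayed under 1.5-fold. In intact tissue genes that rose had a median of 9.80 CPM and genes that fell one of 86.6 CPM, which is not scaled by length; their median transcript lengths were 2725 and 3628 bases. Together the genes that rose held 11.8%, 12.4% and 12.1% of the counts of the intact and 20.2%, 22.6% and 23.1% of those of the lesioned libraries. Those that fell held 52.8%, 51.2% and 52.1% of the counts in the intact and 43.5%, 41.0% and 40.1% in the lesioned libraries. Levels are relative to the counts of a library, so calls of small falls depend on the scaling. With upper-quartile scaling 4477 genes were higher and 4782 lower. How far the rises alone lowered the share of other genes was not tested.

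**Figure D1:**
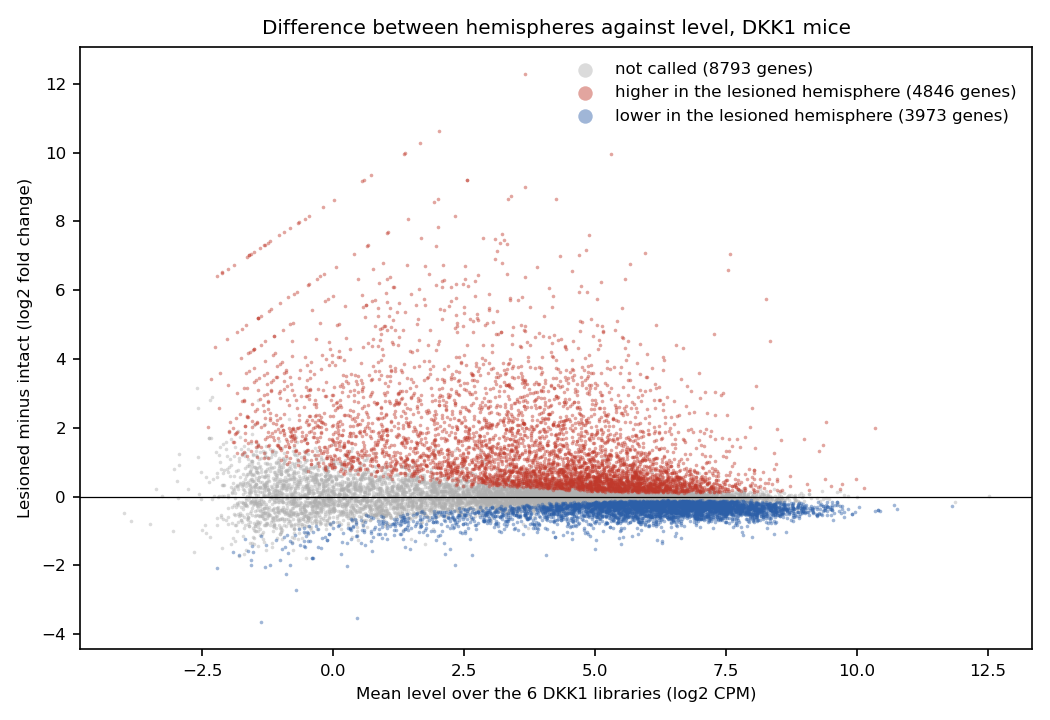
Each point is 1 of the 17612 genes tested; the horizontal axis is the mean level over the 6 DKK1 libraries (log2 CPM) and the vertical axis the log2 fold change of the lesioned over the intact hemisphere. Genes called higher (4846, red) reach far above 0 at low and middle levels, while genes called lower (3973, blue) stay close below 0 and crowd at high levels.

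Genes were grouped into 44 lists by cell type or role. They are to be read against all genes tested, which had a median of 0.01, with 27.5% called higher and 22.6% lower. In order of their medians the highest lists were B and plasma cells, mast cells, T and NK cells, cytokines and chemokines, neutrophils and complement, and the lowest were striatal neurons, ion channels, and glutamate and GABA receptors. Medians cover only members that passed a filter on low counts. Lymphocyte, mast cell and neutrophil genes near 0 in intact tissue can pass it through the lesioned libraries alone. The order of these lists therefore depends on the filter and on few intact counts. Scores of a list in a library (the mean log2 CPM of its members minus that of the intact DKK1 libraries) did not overlap between the hemispheres for 38 of the 44 lists. The exceptions were chondroitin sulfate proteoglycans, immediate early genes, thalamus and hypothalamus, hippocampus, erythrocytes and skeletal muscle. Among the lesioned libraries DKK1 ipsilateral 1 was the least shifted in 11 of 12 myeloid and immune lists and in 6 of 6 lists of neurons, so the lesioned library with the smallest immune rises also had the smallest neuronal falls.

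**Figure D2:**
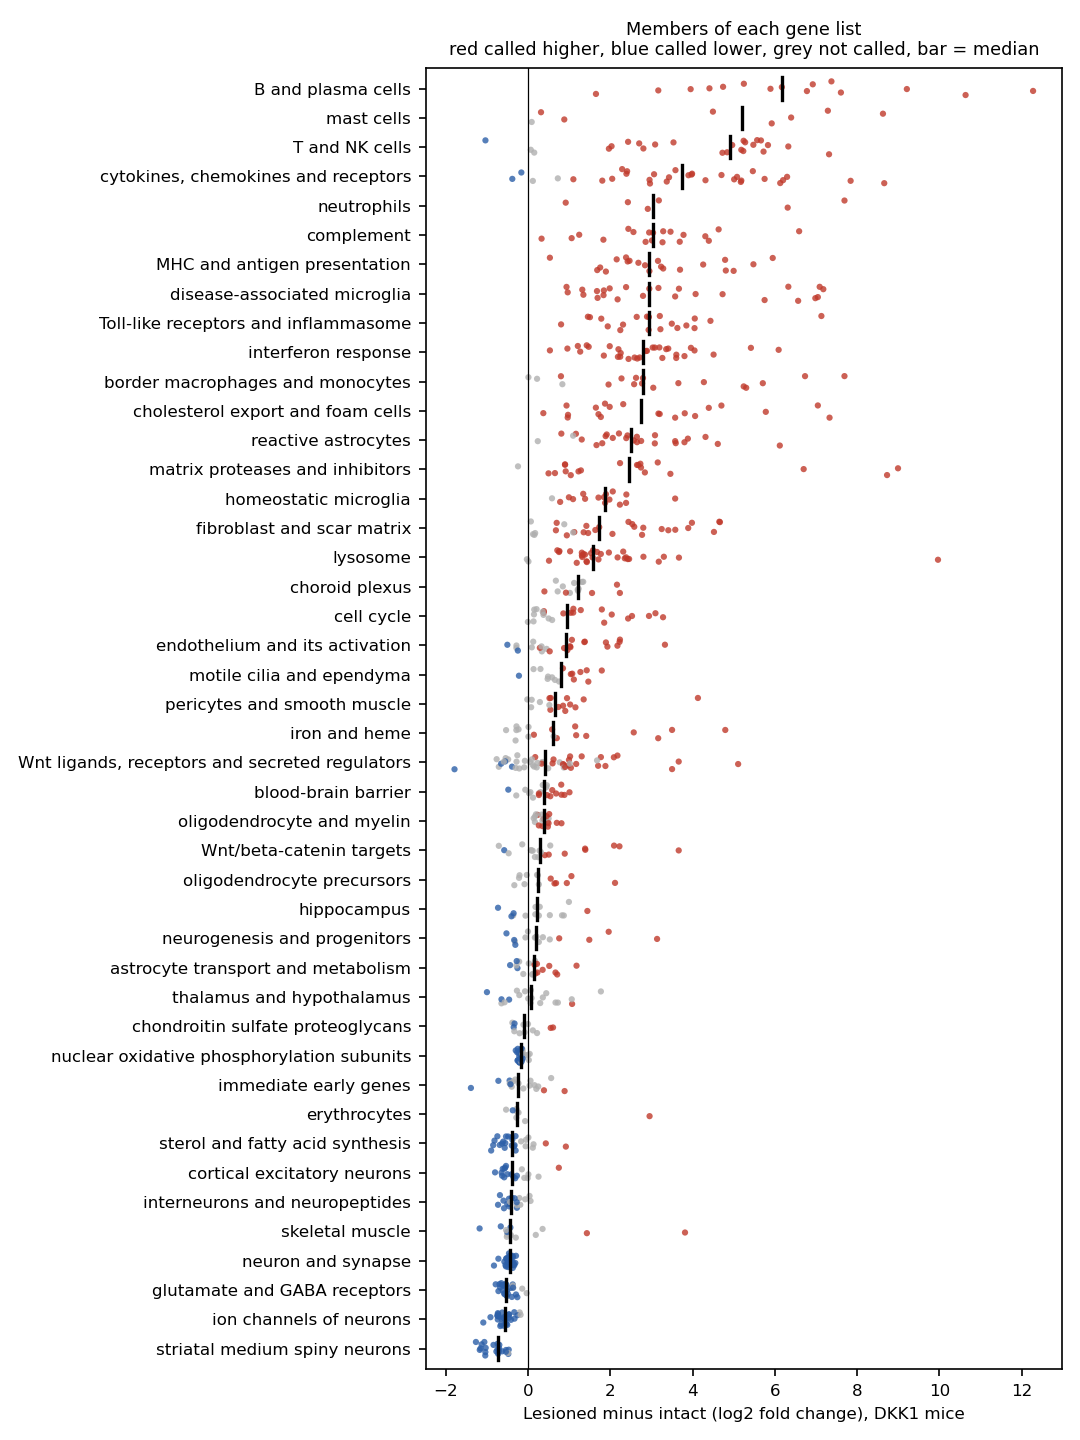
Each point is 1 gene of the list named on the left and the horizontal axis is the log2 fold change of the lesioned over the intact hemisphere of DKK1 mice, with the list's median as a black bar. Most members of the myeloid, lymphocyte and scar lists lie to the right of 0 over a range of several log2 units, and most of those of the neuron lists lie within about 1 log2 unit to its left.

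Complement, the cascade that tags debris and synapses for uptake, rose as a whole: 19 of 19 genes were higher and 0 lower, with a median of 3.04. C1qa, a chain of the recognition molecule C1q, stood at 36.3, 38.6 and 39.8 CPM in the intact and 266, 307 and 352 CPM in the lesioned libraries (3.01 ± 0.16, edgeR adjusted p = 9.2e-07). C3, the component on which all routes converge, stood at 4.41, 3.16 and 3.92 CPM in the intact and 326, 384 and 393 CPM in the lesioned libraries (6.59 ± 0.70, edgeR adjusted p = 2.78e-05). Every lesioned library was above every intact library for both. The receptors that phagocytes use for cleaved C3 and C5 rose too, with C3ar1 at 4.63 ± 0.38, Itgb2 at 4.31 ± 0.34 and C5ar1 at 3.29 ± 0.38. So did regulators that restrain the cascade, namely the C1 inhibitor Serping1 (4.4 ± 0.36) and Cd55 (1.24 ± 0.17). The smallest rise was that of clusterin (Clu, 0.33 ± 0.05), a chaperone of astrocytes and neurons, which in this tissue went from 234 to 294 CPM.

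Microglial genes rose, those of the damage state by more than those of the resting state. Of the homeostatic genes, which mark resting microglia, 15 of 16 were higher, at a median of 1.86. The growth factor receptor Csf1r stood at 68.9, 59.3 and 60.1 CPM in the intact and 221, 231 and 248 CPM in the lesioned libraries (1.9 ± 0.15, edgeR adjusted p = 3.1e-06). The purine receptor P2ry12, which steers resting processes, rose by far less (0.78 ± 0.23, edgeR adjusted p = 0.0148), and the lectin Siglech did not pass (0.58 ± 0.26, edgeR adjusted p = 0.0806; 0.00115 with the replicate number as a block). Of the disease-associated genes, which microglia switch on around damage, all 25 of 25 tested were higher, at a median of 2.95. Gpnmb, a glycoprotein of lipid-laden phagocytes (chromosome 6, 49036518 to 49058182, plus strand), stood at 3.87, 2.75 and 2.05 CPM in the intact and 288, 448 and 400.5 CPM in the lesioned libraries (7.05 ± 0.79, edgeR adjusted p = 3.97e-05). Spp1, the secreted phosphoprotein osteopontin, stood at 11.9, 11.8 and 9.63 CPM in the intact and 293, 286 and 307 CPM in the lesioned libraries (4.73 ± 0.49, edgeR adjusted p = 2.38e-05). For both the lowest lesioned library was more than 10-fold above the highest intact library. Trem2, the lipid receptor of this programme (3.58 ± 0.29), is among the homeostatic genes counted above and had the largest rise of that list. The Trem2 adaptor Tyrobp (2.8 ± 0.22), the integrin Itgax (7.18 ± 0.92) and the fungal lectin Clec7a (7.09 ± 0.91) also rose. Of the disease-associated genes Lpl, a lipase that is also made by neurons, rose least (0.94 ± 0.26).

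Of border macrophage and monocyte genes 15 of 18 were higher, at a median of 2.78. The monocyte chemokine receptor Ccr2 (5.3 ± 0.69, 0.327 to 13.1 CPM), the scavenger receptors Stab1 (2.63 ± 0.14) and Mrc1 (2.58 ± 0.37), and Ms4a7 (5.71 ± 0.68), a mark of macrophages that come from outside the brain tissue proper, were among them. Cd163, the hemoglobin receptor of perivascular macrophages, did not pass (0.01 ± 0.20, edgeR adjusted p = 0.972), and neither did Lyve1 (0.84 ± 0.38, edgeR adjusted p = 0.0897; 0.0236 with the replicate number as a block). Neutrophil genes were few: 6 of 12 passed the filter on low counts, and 6 of them rose. Csf3r, the receptor of the neutrophil growth factor, which microglia also express, went from 10.5 to 95.4 CPM (3.18 ± 0.19). The defining genes S100a8 (0.20 to 1.58 CPM) and S100a9 (0.796 to 4.39 CPM) were called higher at a few CPM. A member passes this filter through the group where it is high, so the share called and the median are given for members tested, not for the lists.

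Mast cell genes rose, with 7 of 8 tested (of 11) higher. The median was 5.21, or 4.99 with Tpsb2, which had 0 counts in intact tissue, at its bound. Cpa3, the carboxypeptidase of mast cell granules, stood at 0.049, 0 and 0 CPM in the intact and 3.09, 3.55 and 2.68 CPM in the lesioned libraries, which was 209.6-fold higher, 95% counting interval 37.2 to 8311. The tryptases Tpsab1 (5.93 ± 1.11) and Tpsb2 (at least 44.8-fold higher), which are close copies that the counting may not separate, and the protease Mcpt4 (93.7-fold higher, 95% counting interval 31.8 to 457) rose as well. Cma1, the chymase (4.5 ± 1.34, edgeR adjusted p = 0.0156), lost its call by DESeq2 (adjusted p = 0.0771) and without DKK1 contralateral 2 or 3 (edgeR adjusted p = 0.0559 and 0.0573). Without DKK1 contralateral 2 the list held 4 genes called higher. The growth factor receptor Kit, which neurons express too, did not pass (0.09 ± 0.10, edgeR adjusted p = 0.492).

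T and NK cell genes followed, with 21 of 24 higher, 1 lower and a median of 4.9. Cd3e, a chain of the T cell receptor complex, stood at 0.098, 0.123 and 0.0436 CPM in the intact and 4.11, 4.37 and 4.03 CPM in the lesioned libraries (5.48 ± 0.36, edgeR adjusted p = 1.57e-06). The CD8 chain Cd8a stood at 0.196, 0.41 and 0.131 CPM in the intact and 6.93, 11.4 and 11.4 CPM in the lesioned libraries (5.28 ± 0.49, edgeR adjusted p = 8.3e-06). In intact tissue these genes were close to nothing, and in each lesioned library they were counted. Cytotoxic effectors stood at about 1 CPM in the lesion, with granzyme K (Gzmk) at 0.195 to 1.38 CPM, granzyme B (Gzmb) at 0.128 to 0.737 CPM and perforin (Prf1) at 0.0309 to 0.994 CPM, each of them higher. Cd4 fell by 1.03 ± 0.19 (edgeR adjusted p = 8.64e-04), at 36.9, 35.8 and 42.7 CPM in the intact and 19.6, 19.8 and 16.9 CPM in the lesioned libraries, so that it was not near 0 in intact tissue as Cd3e and Cd8a were. Foxp3 (16.2 to 17.0 CPM, 0.07 ± 0.10) and Cd247 (10.7 to 11.8 CPM, 0.15 ± 0.10), which mark T cells elsewhere, were also at their level in intact tissue and did not pass.

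B and plasma cell genes had the highest median of all lists (6.17, over members that passed the filter on low counts), with 15 of 15 tested (of 18) higher. Ms4a1, which encodes CD20, stood at 0.049, 0 and 0 CPM in the intact and 10.3, 9.65 and 15.4 CPM in the lesioned libraries, 803-fold higher, 95% counting interval 144 to 31740.0. Cd22, a lectin that dampens the B cell receptor, stood at 0.392, 0.369 and 0.131 CPM in the intact and 51.1, 56.1 and 68.5 CPM in the lesioned libraries (7.61 ± 0.46, edgeR adjusted p = 1.29e-06). Both were near 0 in each intact library, and DKK1 ipsilateral 3 was the highest for each of them. The signalling chains Cd79a (5.9 ± 0.43) and Cd79b (6.78 ± 0.49), the lineage factor Pax5 (6.92 ± 0.50), the B cell kinase Blk (at least 183-fold higher against a floor of 3 counts over the intact libraries) and, of the antibody-secreting state, Jchain (4.74 ± 0.58) and Mzb1 (4.41 ± 0.46) rose as well. The constant region genes Ighm and Igkc and the T cell receptor constants Trac, Trbc1 and Trbc2 were not analysed here. Bounds and intervals for genes of 3 counts or fewer cover counting error only.

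**Figure D3:**
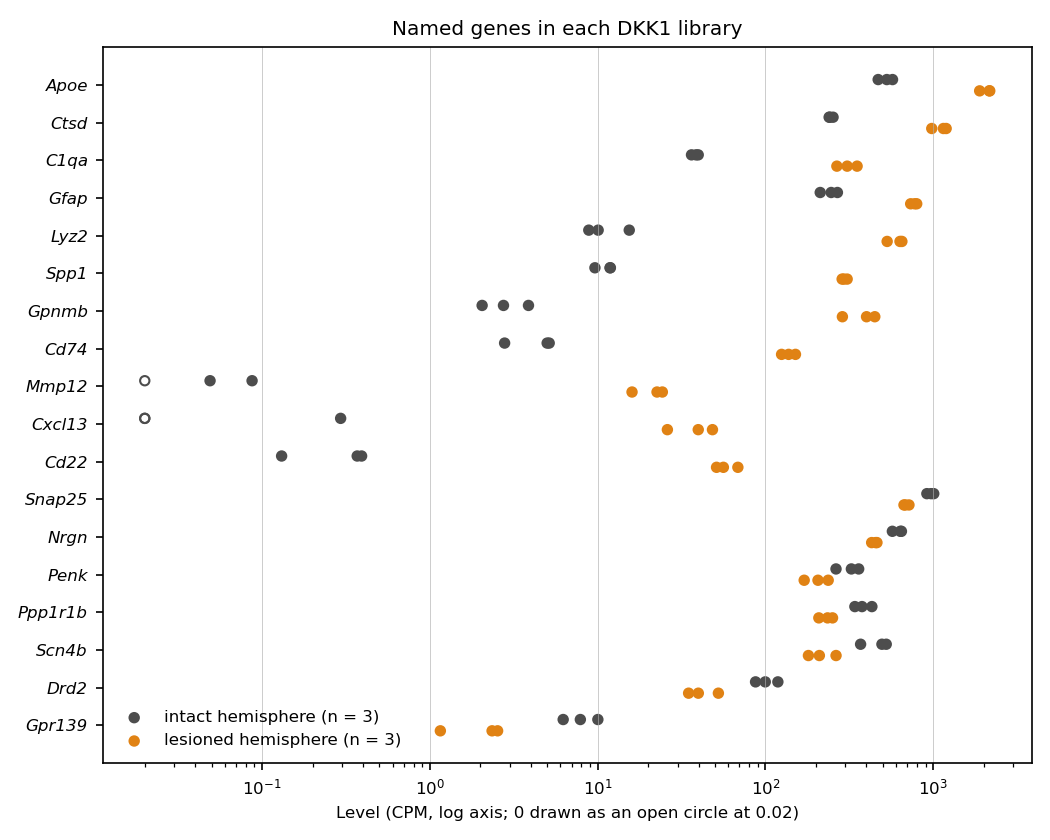
Levels of 18 named genes in each DKK1 library on a log axis (CPM), with the 3 intact libraries in dark grey and the 3 lesioned libraries in orange; 0 is drawn as an open circle at 0.02. From Apoe to Cd22 every lesioned library lies above every intact library, and from Snap25 to Gpr139 every lesioned library lies below, for most over a shorter distance. The fall of Gpr139 is about as long as the rise of Apoe and longer than that of Gfap.

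Antigen presentation rose in both classes. Of 21 genes 21 were higher, at a median of 2.95. H2-D1, a class I heavy chain that every cell can show, stood at 57.7, 64.0 and 55.5 CPM in the intact and 261, 327 and 338 CPM in the lesioned libraries (2.38 ± 0.15, edgeR adjusted p = 1.44e-06). Of class II, which professional presenting cells show, Cd74 (the invariant chain) stood at 5.14, 5.0 and 2.79 CPM in the intact and 125, 138 and 151 CPM in the lesioned libraries (5.0 ± 0.64, edgeR adjusted p = 9.89e-05). The class II chains H2-Aa (5.48 ± 0.68), H2-Ab1 (4.81 ± 0.65) and H2-Eb1 (5.95 ± 0.81) moved alike, and H2-D1 rose by less. Peptide supply rose with them, through the immunoproteasome subunits Psmb8 (3.16 ± 0.27) and Psmb9 (3.24 ± 0.32), the transporter Tap1 (2.85 ± 0.30) and the master regulators Nlrc5 (3.29 ± 0.35) and Ciita (2.16 ± 0.27). Members of the H2 family are near copies of each other, and how the counting shared reads between them is not given in the sources used here.

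All 32 of 32 interferon response genes were higher, at a median of 2.79. Of the genes whose promoters are printed above, Ifit1 stood at 2.65, 3.16 and 2.44 CPM in the intact and 12.4, 20.1 and 17.3 CPM in the lesioned libraries (2.59 ± 0.29), Irgm1 rose by 1.84 ± 0.17, Gbp2 by 3.08 ± 0.40 and Cxcl10 by 3.8 ± 0.56. Oas1a, which makes the second messenger of RNase L, rose by 3.96 ± 0.29 and Ifitm3, which blocks virus entry, by 2.66 ± 0.16 (edgeR adjusted p = 1.15e-06). Of the factors that carry the signal, Stat2, which had the smallest change of the list, rose by 0.53 ± 0.07, while Irf7 rose by 3.27 ± 0.34 and Irf8, also a factor of microglia, by 3.6 ± 0.30. No member was lower or missed the threshold.

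Of cytokines, chemokines and their receptors 28 of 32 rose, at a median of 3.74, and 2 fell. Cxcl13, which draws B cells into lymphoid tissue, stood at 0.294, 0 and 0 CPM in the intact and 26.0, 39.8 and 48.3 CPM in the lesioned libraries (8.66 ± 0.71, edgeR adjusted p = 4.39e-06). Chemokines for monocytes and T cells, Ccl3 (6.13 ± 0.59), Ccl4 (81.9-fold higher, 95% counting interval 27.8 to 399.7), Ccl5 (5.19 ± 0.54) and Ccl8 (6.3 ± 0.67), and the receptor Cxcr4 (5.08 ± 0.26) rose as well. Of inflammatory cytokines Il1b went from 0.477 to 2.63 CPM (2.41 ± 0.57) and Tnf from 0.258 to 2.24 CPM (3.06 ± 0.70). Il1rn, which blocks the receptor of interleukin 1, went from 0.0273 to 7.93 CPM and was 267-fold higher, 95% counting interval 73.5 to 2206. Both genes that fell are chemokines expressed by neurons. Cx3cl1, the ligand by which neurons hold microglia in check, fell by 0.38 ± 0.11 (554 to 426 CPM), while its receptor Cx3cr1 rose by 1.87 ± 0.27 (49.8 to 182 CPM), and Cxcl14 fell by 0.16 ± 0.05, and without DKK1 ipsilateral 2 or 3 the list held 1 fall. The alarmin Il33 did not pass (0.73 ± 0.29, edgeR adjusted p = 0.0605) but passed with the replicate number as a block (edgeR adjusted p = 5.55e-06).

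Toll-like receptors and inflammasome genes were all higher (20 of 20, median 2.94). The endosomal RNA sensors Tlr7 (3.63 ± 0.24), Tlr8 (7.13 ± 0.50) and Tlr13 (4.05 ± 0.32) and the surface receptors Tlr2 (4.05 ± 0.37) and Tlr4 (3.5 ± 0.20) rose by more than Tlr3 (0.80 ± 0.16), which astrocytes and neurons express. Of the inflammasome, the sensors Nlrp3 (2.94 ± 0.27) and Aim2 (1.78 ± 0.16), the adaptor Pycard (2.93 ± 0.34), Casp1 (2.24 ± 0.35) and the pore protein Gsdmd (2.89 ± 0.24) were higher.

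Astrocyte genes split by what they do. Of reactive genes, which astrocytes switch on around injury, 24 of 26 rose, at a median of 2.49. Bulk tissue does not show which cells expressed them, and the part of other cells in these rises was not tested. Gfap, the filament of astrocytes, stood at 246, 268 and 212 CPM in the intact and 797, 776 and 734 CPM in the lesioned libraries (1.67 ± 0.16, edgeR adjusted p = 1.37e-05). Aspg, an asparaginase, rose by 4.32 ± 0.21 (9.7 to 194 CPM), vimentin (Vim) by 2.42 ± 0.11, the iron-binding lipocalin Lcn2 by 4.61 ± 0.44, the hyaluronan receptor Cd44 by 3.59 ± 0.37 and the protease inhibitor Serpina3n by 1.89 ± 0.24. Tenascin C (Tnc) did not pass (1.1 ± 0.47, edgeR adjusted p = 0.0701) but passed with the replicate number as a block (edgeR adjusted p = 1.95e-04). Of genes of astrocyte transport and metabolism, 9 of 20 rose and 3 fell, against 27.5% and 22.6% of all genes tested, at a median of 0.16. The water channel Aqp4 (1.18 ± 0.27), the gap junction protein Gja1 (0.52 ± 0.06) and the lineage factor Sox9 (0.67 ± 0.05) rose, the glutamate transporter Slc1a2 fell by 0.26 ± 0.09 and the bicarbonate transporter Slc4a4 fell by 0.44 ± 0.09. Aldh1l1, a pan-astrocyte enzyme, stood at 51.0 to 51.7 CPM (0.02 ± 0.09, edgeR adjusted p = 0.883), and the potassium channel Kcnj10 at 199 to 214 CPM (0.10 ± 0.11). Without DKK1 contralateral 1 the rises of this list numbered 5, and with the replicate number as a block its falls numbered 5.

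Scar matrix rose, with 23 of 29 genes higher, 0 lower and a median of 1.73. Col1a1, a chain of the main collagen of scars, stood at 19.8, 17.5 and 13.8 CPM in the intact and 139, 207 and 197 CPM in the lesioned libraries (3.41 ± 0.48, edgeR adjusted p = 1.92e-04). Col1a2 (3.58 ± 0.42), Col3a1 (4.52 ± 0.71), the proteoglycans Lum (4.67 ± 0.49) and Dcn (3.99 ± 0.32), the crosslinking enzyme Lox (4.65 ± 0.42) and thrombospondin (Thbs1, 3.9 ± 0.30) rose. Of the basement membrane of vessels Col4a1 rose by 0.68 ± 0.09 while its partner chain Col4a2 did not pass (0.12 ± 0.08, edgeR adjusted p = 0.228), and neither did Col6a1 (0.07 ± 0.10) nor Fap (0.17 ± 0.24). Matrix proteases and their inhibitors rose on both sides of that balance (19 of 20, median 2.44). Mmp12, the elastase of macrophages, stood at 0.049, 0 and 0.0872 CPM in the intact and 22.6, 24.3 and 16.0 CPM in the lesioned libraries, 470.4-fold higher, 95% counting interval 161 to 2283, and the stromelysin Mmp3 was 576-fold higher, 95% counting interval 197 to 2796. The collagenase Mmp14 (2.68 ± 0.30), the plasminogen activator Plau (3.46 ± 0.42) and the inhibitor Timp1 (2.65 ± 0.42) rose, and Mmp9, much studied in acute stroke, rose by less (0.92 ± 0.34, edgeR adjusted p = 0.0416). Chondroitin sulfate proteoglycans, which limit the regrowth of axons, were called no more often than genes at large (27.5% higher and 22.6% lower): 2 of 12 rose (the synthase Chsy1, 0.61 ± 0.11, and Cspg4, 0.55 ± 0.15) and 2 fell, the link proteins Hapln1, which fell by 0.35 ± 0.11, and Hapln4, which fell by 0.33 ± 0.10. The call of Hapln1 was lost without DKK1 ipsilateral 2 or 3 (edgeR adjusted p = 0.0578 and 0.0893) and that of Hapln4 without DKK1 ipsilateral 1 or 3 (edgeR adjusted p = 0.0523 and 0.0507). Brevican (Bcan) was level (261 to 261 CPM) and neurocan (Ncan) did not pass (-0.11 ± 0.11). With the replicate number as a block 4 genes of this list were called lower, and without DKK1 ipsilateral 3 the count was 0.

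Lysosomal genes rose across the organelle, with 31 of 33 higher, 0 lower and a median of 1.57. Ctsd, a protease that degrades proteins taken up, went from 245 ± 7.04 to 1108 ± 113 CPM (mean ± SD, n = 3; 2.18 ± 0.13, edgeR adjusted p = 1.09e-06). Atp6v0d2, a proton pump subunit of macrophages and osteoclasts (chromosome 4, 19876838 to 19922566, minus strand), went from 0.0799 ± 0.103 to 79.1 ± 17.4 CPM (mean ± SD, n = 3) and had the largest change of the list (9.97 ± 1.14, edgeR adjusted p = 4.8e-05). That fold rests on a few counts in the intact libraries, and without DKK1 contralateral 1 the log2 change of Atp6v0d2 was 11.54. Housekeeping parts of the organelle rose modestly, such as the membrane protein Lamp1 (0.76 ± 0.07) and the saposin precursor Psap (0.51 ± 0.07), and the glucosidase Gaa (-0.03 ± 0.05) and the channel Mcoln1 (0.01 ± 0.06) did not pass. Ctsc, whose promoter is printed above, rose by 3.3 ± 0.27, the lipase Lipa, which frees cholesterol from esters, by 2.31 ± 0.21, and Tfeb, the factor that drives lysosomal genes, by 1.39 ± 0.16.

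Cholesterol handling and cholesterol synthesis went in opposite directions. All 20 of 20 genes of cholesterol export and foam cells rose, at a median of 2.74. Apoe, the main lipid carrier of the brain (chromosome 7, 19696244 to 19699188, minus strand), stood at 529, 469.8 and 572 CPM in the intact and 1891, 2158 and 2172 CPM in the lesioned libraries (1.99 ± 0.12, edgeR adjusted p = 1.09e-06). Abca1, the pump that loads cholesterol onto it, went from 52.4 ± 3.03 to 482 ± 44.5 CPM (mean ± SD, n = 3; 3.2 ± 0.22, edgeR adjusted p = 2.02e-06). The lipid droplet coat Plin2 (4.06 ± 0.34), the scavenger receptors Msr1 (5.78 ± 0.75) and Cd36 (4.7 ± 0.65), the esterifying enzyme Soat1 (1.87 ± 0.13) and the fatty acid carrier Fabp4 (7.33 ± 0.49) rose with them. Of sterol and fatty acid synthesis genes 18 of 26 fell and 2 rose (Srebf1 and Ebp, the latter by 0.43 ± 0.08), at a median of -0.38. Msmo1, an enzyme late in cholesterol synthesis, stood at 75.8, 68.6 and 69.4 CPM in the intact and 43.8, 42.2 and 41.5 CPM in the lesioned libraries and fell by 0.74 ± 0.05 (edgeR adjusted p = 2.02e-06). Sqle, an earlier enzyme, fell by 0.69 ± 0.10. Of the factors that set these genes, Srebf2 fell by 0.48 ± 0.10 and Srebf1, which favours fatty acids and is itself induced by oxysterol receptors, rose by 0.92 ± 0.15. Of the enzymes of fatty acid synthesis Fasn (-0.05 ± 0.07), Scd2 (0.01 ± 0.08) and Acaca (0.13 ± 0.08; called higher with the replicate number as a block, edgeR adjusted p = 0.0422) did not pass.

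Iron and heme genes rose in part (10 of 18 higher, 0 lower, median 0.61). Hmox1, which degrades heme, stood at 5.98, 6.31 and 5.54 CPM in the intact and 41.6, 59.8 and 58.7 CPM in the lesioned libraries (3.17 ± 0.17, edgeR adjusted p = 8.09e-07). The ferritin chains rose unequally, with Ftl1 at 1.42 ± 0.12 and Fth1 at 0.59 ± 0.09, and so did the phagosomal iron pump Slc11a1 (4.8 ± 0.39) and the exporter Slc40a1 (1.17 ± 0.27). Hemoglobin genes did not pass (Hbb-bs -0.23 ± 0.63, Hba-a1 -0.28 ± 0.68, the latter a near copy of Hba-a2).

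Neuronal genes fell, by less than 2-fold for most. Every one of 27 general neuron and synapse genes fell (27, median -0.45). Snap25, which fuses synaptic vesicles, stood at 969.6, 916 and 1007 CPM in the intact and 717, 681 and 669 CPM in the lesioned libraries and fell by 0.48 ± 0.09 (edgeR adjusted p = 0.00108). Syn1, whose promoter is printed above, fell by 0.39 ± 0.07, the nuclear marker Rbfox3 (NeuN) by 0.58 ± 0.09, the dendritic Map2 by 0.53 ± 0.09 and the postsynaptic Shank3 by 0.54 ± 0.07. Syt2, a vesicle protein of fast-firing neurons, fell most (0.83 ± 0.17). Of receptors for glutamate and GABA 24 of 28 fell (median -0.53), and of neuronal ion channels 30 of 32 (median -0.57). Gabrd, a GABA receptor subunit outside synapses, fell by 0.79 ± 0.13, the glutamate receptor Grm5 by 0.65 ± 0.10 and the potassium channel Kcna4 by 0.91 ± 0.12. Gabra5 (-0.14 ± 0.09) and Grik4 (-0.03 ± 0.10), both enriched in the hippocampus, did not pass. Neither did Grik1 nor Grm3 (edgeR adjusted p = 0.159 and 0.064), which were called lower with the replicate number as a block (edgeR adjusted p = 0.0375 and 0.00218).

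Striatal genes fell further. Of 22 markers of medium spiny neurons, the output cells of the striatum, 21 fell, at a median of -0.74. Drd2, the dopamine receptor of the indirect pathway (chromosome 9, 49340403 to 49408168, plus strand), stood at 99.8, 87.3 and 119 CPM in the intact and 52.4, 39.8 and 34.9 CPM in the lesioned libraries and fell by 1.27 ± 0.19 (edgeR adjusted p = 2.61e-04). Drd1, that of the direct pathway, stood at 126, 113 and 141 CPM in the intact and 74.1, 56.3 and 40.5 CPM in the lesioned libraries and fell by 1.15 ± 0.25 (edgeR adjusted p = 0.00265). For both receptors every lesioned library lay below every intact library. Scn4b, a sodium channel subunit abundant in striatum, stood at 495, 369 and 525 CPM in the intact and 264, 209.6 and 180.4 CPM in the lesioned libraries and fell by 1.09 ± 0.21. Rasd2 fell by 1.13 ± 0.17, Adora2a by 1.06 ± 0.19 and Pde10a by 1.04 ± 0.22, while the opioid precursors Penk (0.63 ± 0.15) and Pdyn (0.47 ± 0.12) fell by less. DKK1 ipsilateral 3 had the lowest striatal score (list scores -0.59, -0.82 and -1.06 in the lesioned against 0.02, -0.17 and 0.15 in the intact libraries).

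Of cortical excitatory genes 13 of 19 fell and 1 rose, at a median of -0.40. Markers of the upper and middle layers fell, among them Rorb by 0.80 ± 0.17, Cux2 by 0.61 ± 0.11 and Rasgrf2 by 0.63 ± 0.11. Markers of deep layers were mixed, with Tbr1 falling by 0.64 ± 0.12 and Tle4 by 0.31 ± 0.10, and with Fezf2 (-0.09 ± 0.15, 28.4 to 26.7 CPM) and Crym (0.01 ± 0.14) not past the threshold. The one member that rose, Sulf2 (0.75 ± 0.09), is a sulfatase that is not limited to neurons. Of interneuron and neuropeptide genes 13 of 20 fell (median -0.42), such as Gad1 by 0.46 ± 0.07, Pvalb by 0.51 ± 0.10, Vip by 0.46 ± 0.16 and Sst by 0.27 ± 0.09. With the replicate number as a block Chodl (edgeR adjusted p = 0.0542) and Htr3a (0.0557) of this list lost their calls, while Npy (0.0206), Lhx6 (0.0203) and Cck (0.0143) were called lower.

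Nuclear genes of oxidative phosphorylation fell by small amounts, 24 of 34 with a median of -0.17, for example Ndufs1 by 0.26 ± 0.05 and Cycs by 0.30 ± 0.06, and 12 were called without DKK1 ipsilateral 3. Immediate early genes, which firing and handling switch on within minutes, mostly did not pass: 4 of 19 fell and 2 rose, against 22.6% and 27.5% of all genes tested. Nr4a2 stood at 64.8, 70.8 and 59.6 CPM in the intact and 16.3, 36.8 and 21.5 CPM in the lesioned libraries and fell by 1.39 ± 0.33 (edgeR adjusted p = 0.00477). Bdnf, the growth factor, fell by 0.43 ± 0.16 and Egr3 by 0.45 ± 0.14, the latter lost without DKK1 ipsilateral 2 (edgeR adjusted p = 0.0708) or 3 (0.0695). Jun rose by 0.39 ± 0.12, a call lost without DKK1 contralateral 1 or DKK1 ipsilateral 2 or 3 (edgeR adjusted p from 0.0693 to 0.0976). Fos was level on average (37.6 to 38.7 CPM, 0.04 ± 0.63) with wide errors, and the scores of the list differed between libraries of 1 hemisphere as much as between hemispheres (-0.41, 0.11 and 0.30 in the intact and -0.41, 0.02 and 0.04 in the lesioned libraries). Library 1 of each hemisphere was the lowest, and with the replicate number as a block 10 of the genes were called lower, among them Egr1 (-0.42 ± 0.33; edgeR adjusted p = 1.45e-04 with the block). Without DKK1 ipsilateral 2 or 3 this list held 2 genes called lower and 1 higher.

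Myelin genes rose slightly. Of oligodendrocyte and myelin genes 12 of 20 were higher and 0 lower, at a median of 0.38. Mbp, a main protein of myelin, stood at 1001, 964 and 1125 CPM in the intact and 1246, 1201 and 1192 CPM in the lesioned libraries (0.24 ± 0.07, edgeR adjusted p = 0.0199). Cldn11 rose by 0.70 ± 0.07 and Aspa by 0.81 ± 0.14, whereas Mobp (0.17 ± 0.12) and Opalin (0.50 ± 0.58; edgeR adjusted p = 6.91e-04 with the replicate number as a block) did not pass. With the replicate number as a block 19 of the 20 were called higher, and without DKK1 contralateral 2 or DKK1 ipsilateral 1 the count was 6 and 7. Of oligodendrocyte precursor genes 6 of 14 rose, against 27.5% of all genes tested (median 0.25). They were Pdgfra (0.94 ± 0.12) and Cspg4 (0.55 ± 0.15), which fibroblasts and pericytes also express, Bmp4 (2.12 ± 0.26), C1ql1 (0.64 ± 0.17), and Gpr17 (0.68 ± 0.15) and Enpp6 (1.06 ± 0.28), marks of precursors on their way to form myelin. With the replicate number as a block 3 genes of this list fell.

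Vessel genes rose moderately and unevenly. Of blood-brain barrier genes 10 of 20 rose and 1 fell, at a median of 0.40. The tight junction protein Cldn5, whose loss opens the barrier, stood at 45.4, 51.8 and 49.4 CPM in the intact and 66.1, 74.6 and 72.9 CPM in the lesioned libraries (0.54 ± 0.07, edgeR adjusted p = 5.65e-05). The efflux pumps Abcb1a (0.68 ± 0.11) and Abcg2 (0.81 ± 0.13) and the tricellular junction protein Lsr (1.01 ± 0.10) rose, Cldn12 fell by 0.48 ± 0.08, and occludin (Ocln, 0.30 ± 0.14), the glucose transporter Slc2a1 (0.12 ± 0.16) and the lipid transporter Mfsd2a (-0.29 ± 0.35) did not pass. With the replicate number as a block Ocln (edgeR adjusted p = 0.0203) and Slc2a1 (0.0296) were called higher and Mfsd2a (0.00858) lower. Of endothelial and activation genes 15 of 24 rose and 2 fell (median 0.92). The adhesion molecules by which leukocytes stop on vessels led them, Icam1 at 3.14, 6.76 and 4.53 CPM in the intact and 36.9, 56.9 and 52.6 CPM in the lesioned libraries (3.33 ± 0.27, edgeR adjusted p = 4.35e-06) and Vcam1 at 1.89 ± 0.17, with the selectins Sele (2.24 ± 0.59) and Selp (2.23 ± 0.76) at low levels. The pan-endothelial Pecam1 (0.96 ± 0.08) and Cdh5 (1.38 ± 0.17) and the vessel-loosening Angpt2 (1.93 ± 0.36) rose, Vegfa fell by 0.25 ± 0.07 and the chemokine scavenger Ackr1 fell by 0.50 ± 0.09, and Plvap, a protein of leaky vessels, did not pass (-0.28 ± 0.13, edgeR adjusted p = 0.0845; called lower with the replicate number as a block, at 0.0202). Of pericyte and smooth muscle genes 11 of 16 rose (median 0.65), with Anpep, which macrophages and fibroblasts also carry, at 4.13 ± 0.33, Pdgfrb at 1.35 ± 0.14 and Acta2 at 0.85 ± 0.15, but not the pericyte genes Rgs5 (0.08 ± 0.10) and Abcc9 (-0.02 ± 0.09).

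Wnt genes are described in the order of the pathway. Of ligands, receptors and secreted regulators 21 of 48 rose and 4 fell, against 27.5% and 22.6% of all genes tested, at a median of 0.42. Among ligands Wnt5a (14.4 to 32.6 CPM, 1.17 ± 0.16), Wnt5b (0.86 ± 0.15), Wnt11 (1.77 ± 0.26), Wnt16 (3.5 ± 0.51) and Wnt6 (2.17 ± 0.33) rose, Wnt4 did not pass (0.05 ± 0.17, edgeR adjusted p = 0.841), and Wnt2b fell by 0.39 ± 0.14 and Wnt8b by 1.79 ± 0.52. Wnt7a (15.2 to 14.3 CPM, -0.09 ± 0.12) and Wnt7b (-0.08 ± 0.15), the ligands that maintain the brain's barrier, did not pass. Of receptors Lrp5, a binding partner of DKK1, stood at 19.4, 21.3 and 19.6 CPM in the intact and 48.9, 75.0 and 72.8 CPM in the lesioned libraries (1.71 ± 0.16, edgeR adjusted p = 8.01e-06). Lrp6 rose by 0.33 ± 0.06 and Fzd7 by 1.88 ± 0.22, Fzd3, abundant in neurons, fell by 0.65 ± 0.09, and the cofactor of Wnt7 signalling in vessels, Adgra2, rose by 1.02 ± 0.16. Of secreted inhibitors Sfrp4 went from 2.38 ± 0.291 to 82.5 ± 7.99 CPM (mean ± SD, n = 3; 5.11 ± 0.86) and Dkk2 stood at 0.784, 0.656 and 0.785 CPM in the intact and 7.71, 11.0 and 9.58 CPM in the lesioned libraries (3.66 ± 0.24, edgeR adjusted p = 1.61e-06), with no overlap for either. Without DKK1 ipsilateral 1 this list held 7 falls.

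Of Wnt/beta-catenin targets 8 of 20 rose and 1 fell, against 27.5% and 22.6% of all genes tested, at a median of 0.30. Axin2, the target most often read as pathway output, stood at 47.7, 40.8 and 41.3 CPM in the intact and 51.1, 41.1 and 45.6 CPM in the lesioned libraries and did not pass (0.09 ± 0.10, edgeR adjusted p = 0.478). Neither did Lef1 (0.07 ± 0.13), Nkd1 (0.12 ± 0.13) nor Znrf3 (-0.14 ± 0.14). Those that rose were Dkk2, Nfatc1 (2.09 ± 0.18), Myc (1.39 ± 0.17), Nkd2 (1.39 ± 0.21), Sp5 (2.22 ± 0.49), Rnf43 (0.89 ± 0.17), Notum (0.50 ± 0.15) and Tcf7 (0.41 ± 0.14), of which Myc, Nfatc1 and Tcf7 are also genes of immune cells. Lgr5 fell by 0.58 ± 0.15. With the replicate number as a block Ccnd1 (0.31 ± 0.16), Bambi (0.54 ± 0.21) and Apcdd1 (0.28 ± 0.17) were called higher too (edgeR adjusted p = 0.00225, 0.0072 and 0.0039).

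Cell cycle genes rose in part (15 of 24, 0 lower, median 0.95). Top2a, which dividing cells need to part their chromosomes, stood at 1.32, 1.11 and 1.53 CPM in the intact and 9.55, 6.52 and 6.78 CPM in the lesioned libraries (2.53 ± 0.28, edgeR adjusted p = 2.41e-05). Mki67 rose by 2.04 ± 0.23 and Cdk1 by 3.28 ± 0.43, at levels of a few CPM. Of neurogenesis and progenitor genes 4 of 16 rose and 3 fell (median 0.20), close to the 27.5% and 22.6% of all genes tested. Those that rose, Cd24a (1.49 ± 0.21), Eomes (3.14 ± 0.44), Sox4 (0.76 ± 0.12) and Igfbpl1 (1.96 ± 0.33), are not limited to progenitors, since Cd24a marks ependyma and lymphocytes and Eomes cytotoxic lymphocytes, and doublecortin (Dcx), the mark of young neurons, did not pass (53.9 to 43.1 CPM, -0.32 ± 0.14, edgeR adjusted p = 0.0682) but was called lower with the replicate number as a block (edgeR adjusted p = 0.00203). Nestin (Nes) did not pass (0.53 ± 0.38) and was called higher with the block (edgeR adjusted p = 0.00312), which made 7 rises in this list.

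Markers of other brain regions and of other tissues were counted too, to be read against 27.5% higher and 22.6% lower among all genes, and their part in the results above was not tested. Choroid plexus genes summed to 429 to 549 CPM in the intact and 615 to 1052 CPM in the lesioned libraries, and 5 of 15 were called higher (median 1.21). The transthyretin gene Ttr stood at 85.2, 114 and 92.8 CPM in the intact and 109, 118 and 240.2 CPM in the lesioned libraries and did not pass (0.68 ± 0.32, edgeR adjusted p = 0.103). Between 3 and 9 choroid plexus genes were called in the alternatives other than the test against a fold. Genes of motile cilia and ependyma summed to 114 to 148 CPM in the intact and 188 to 197 CPM in the lesioned libraries, with 8 of 16 higher, 1 lower and a median of 0.80, led by their master factor Foxj1 (1.47 ± 0.17), and 5 were higher without DKK1 contralateral 1. Thalamus and hypothalamus genes summed to 355 to 446 CPM in the intact and 369 to 562 CPM in the lesioned libraries, with 1 of 20 higher, 3 lower and a median of 0.07. Hippocampus genes summed to 705 to 769.7 CPM in the intact and 572 to 648 CPM in the lesioned libraries, with 1 of 14 higher, 3 lower, a median of 0.22 and scores between -0.40 and 0.40 in the intact and 0.25, 0.42 and 0.32 in the lesioned libraries. Of the falls C1ql3 lost its call without DKK1 contralateral 1 or 2 or DKK1 ipsilateral 2 or 3 (edgeR adjusted p from 0.0517 to 0.138). Scores for thalamus and hypothalamus varied widely within a hemisphere (-0.48, 0.21 and 0.28 intact, 0.03, -0.59 and 0.75 lesioned). Of erythrocyte genes 1 of 8 rose (the band 3 gene Slc4a1, 2.96 ± 1.03, not called without DKK1 contralateral 1 or 2 or DKK1 ipsilateral 3, with edgeR adjusted p from 0.0952 to 0.169) and 1 fell, and of skeletal muscle genes 2 of 13 rose and 4 fell, with summed levels of 106 to 113 CPM in the intact and 77.1 to 87.3 CPM in the lesioned libraries.

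**Figure D4:**
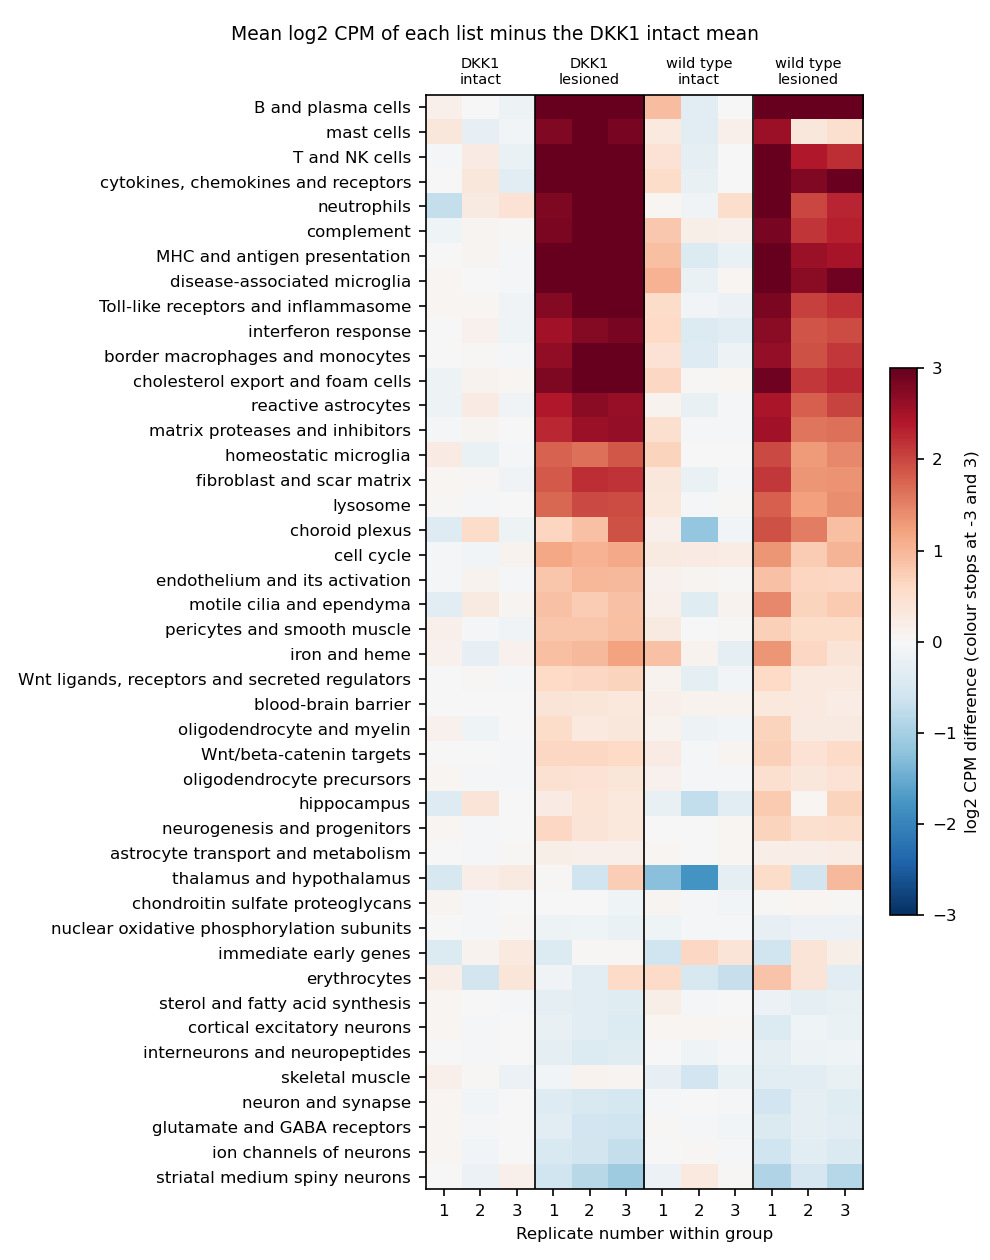
Colour gives the score of each list (rows) in each of the 12 libraries (columns), as mean log2 CPM of its members minus the mean of the 3 intact DKK1 libraries; colours stop at −3 and 3. Immune and scar lists are red in every lesioned library and neuron lists pale blue, except that mast cells are pale in wild-type ipsilateral 2 and 3 (0.351 and 0.489). The thalamus and hypothalamus, hippocampus, immediate early and erythrocyte rows vary within groups.

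By size, among genes whose level reached 1 CPM, the rises were led by genes that intact tissue barely expressed. Beside Blk, Ms4a1, Mmp3, Mmp12, Atp6v0d2 and Cxcl13, the 15 with the largest fitted rise held Mcoln3, a lysosomal channel (at least 142-fold higher), the lymphocyte lipid receptor P2ry10 (at least 117-fold higher), the myeloid lectins Clec4d (at least 114-fold higher) and Clec4e (at least 67.5-fold higher), the lymphocyte GTPase Gimap7 (at least 74.3-fold higher), Apoc2, the cofactor of lipoprotein lipase (789.6-fold higher, 95% counting interval 141 to 31220.0), the protease Mmp27 (at least 66.3-fold higher) and the lymphocyte receptor Slamf7 (452-fold higher, 95% counting interval 154 to 2193). Of these, Apoc2 went from 0.0163 ± 0.0283 to 11.7 ± 2.7 CPM (mean ± SD, n = 3). By length-scaled level (RPKM, from counts and the deposited transcript length), the largest rises were those of Apoe, Lyz2, Ctsd, C1qa, Ftl1, C1qb, C1qc, Apod, Gfap and Spp1. Lyz2, the lysozyme of macrophages, stood at 15.4, 8.86 and 10.1 CPM in the intact and 531, 650.4 and 634 CPM in the lesioned libraries (5.73 ± 0.72, edgeR adjusted p = 9.0e-05). Apod, a lipid carrier of glia and fibroblasts, stood at 111, 165 and 157 CPM in the intact and 402, 676 and 618 CPM in the lesioned libraries (1.97 ± 0.22, edgeR adjusted p = 3.69e-05).

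By ratio, among genes whose level reached 1 CPM, the largest falls were of genes at a few CPM. Tfap2d, a transcription factor, went from 2.52 to 0.219 CPM (it fell by 3.54 ± 0.83) and Gpx6, a glutathione peroxidase, from 1.94 to 0.47 CPM (it fell by 2.03 ± 0.47). Gpr139, a receptor of striatum and habenula, went from 8.05 ± 1.9 to 2.01 ± 0.749 CPM (mean ± SD, n = 3) and fell by 1.99 ± 0.30 (edgeR adjusted p = 2.68e-04). Ido1, a tryptophan-degrading enzyme that interferon induces elsewhere, stood at 7.2, 6.36 and 7.46 CPM in the intact and 3.05, 1.9 and 2.27 CPM in the lesioned libraries and fell by 1.54 ± 0.22 (edgeR adjusted p = 1.59e-04), while the interferon response genes rose. Others were Wnt8b, Vmn2r85, Rpe65, Col24a1, Clspn, Tspear, Ptprv, Barhl2, Dgat2l6 and Qrfpr, with falls between 1.46 ± 0.28 and 1.79 ± 0.52. By length-scaled level the largest falls included those of Nrgn, Snap25, Camk2n1, Pcp4, Cdr1, Penk, Ndrg4, Ppp1r1b and Snhg11. Nrgn, a calmodulin-binding protein of dendrites, stood at 646, 571 and 637 CPM in the intact and 454, 462 and 429.6 CPM in the lesioned libraries and fell by 0.46 ± 0.09, and Ppp1r1b, the dopamine signal protein DARPP-32, fell by 0.73 ± 0.16.

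The lesion of DKK1 mice was then set beside that of wild-type mice, with no library shared by the 2 comparisons. DKK1 mice differ from wild-type mice in 3 alleles at once and may differ in strain background. A difference between the genotypes can therefore not be assigned to the Dkk1 transgene alone. In wild-type mice 3740 genes were higher (21.2%) and 2806 lower (15.9%). Called in the same direction in both were 5811 genes, which are 65.9% of those called in DKK1 and 88.8% of those called in wild-type mice. Log2 fold changes of the 2 genotypes had a Pearson correlation of 0.886 across the 17612 genes, which are not independent replicates. Called in opposite directions were 4 genes, Ntng1, Plekhd1, Tunar and Serpina1b, none of which passed the test of the difference between genotypes (edgeR adjusted p between 0.306 and 0.322). With the replicate number as a block all 4 passed (edgeR adjusted p = 0.00208 for Ntng1, 0.0425 for Plekhd1, 0.0253 for Tunar and 0.00951 for Serpina1b), and without wild-type ipsilateral 1 Ntng1 passed (edgeR adjusted p = 0.0384) and the other 3 did not. Ntng1, an axon guidance protein of thalamic neurons, went from 37.2 to 23.8 CPM in DKK1 mice, where it fell by 0.65 ± 0.14, and rose in wild-type mice (0.40 ± 0.14).

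List medians lay higher in DKK1 than in wild-type mice in 23 of the 30 lists with more members called higher than lower in DKK1 mice. The choice of these lists used the same DKK1 values, so the count is description only. Chosen by wild-type calls, the lists would also hold thalamus and hypothalamus, hippocampus and chondroitin sulfate proteoglycans, whose medians lay lower in DKK1 mice. Medians were 6.17 against 4.89 for B and plasma cells, 4.9 against 3.51 for T and NK cells, 3.04 against 2.25 for complement and 2.74 against 1.56 for cholesterol export. They were near each other for striatal neurons (-0.74 against -0.76), Wnt/beta-catenin targets (0.30 against 0.30) and Wnt ligands and receptors (0.42 against 0.42). They lay lower in DKK1 mice for choroid plexus (1.21 against 1.97), for thalamus and hypothalamus (0.07 against 1.23) and for hippocampus (0.22 against 0.75). Wild-type ipsilateral 1 stood apart from the other wild-type lesions, at 70.9 on the first component of all libraries against 29.2 and 37.1, and with it included 6 of the 44 lists had every DKK1 lesion score above every wild-type one, against 26 of 44 without it. Wild-type contralateral 1 also stood apart from the other intact wild-type libraries, at −41.2 against −72.6 and −63.3 on that component, with disease-associated microglia scores of 1.05, -0.19 and 0.05 in wild-type contralateral 1 to 3.

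**Figure D5:**
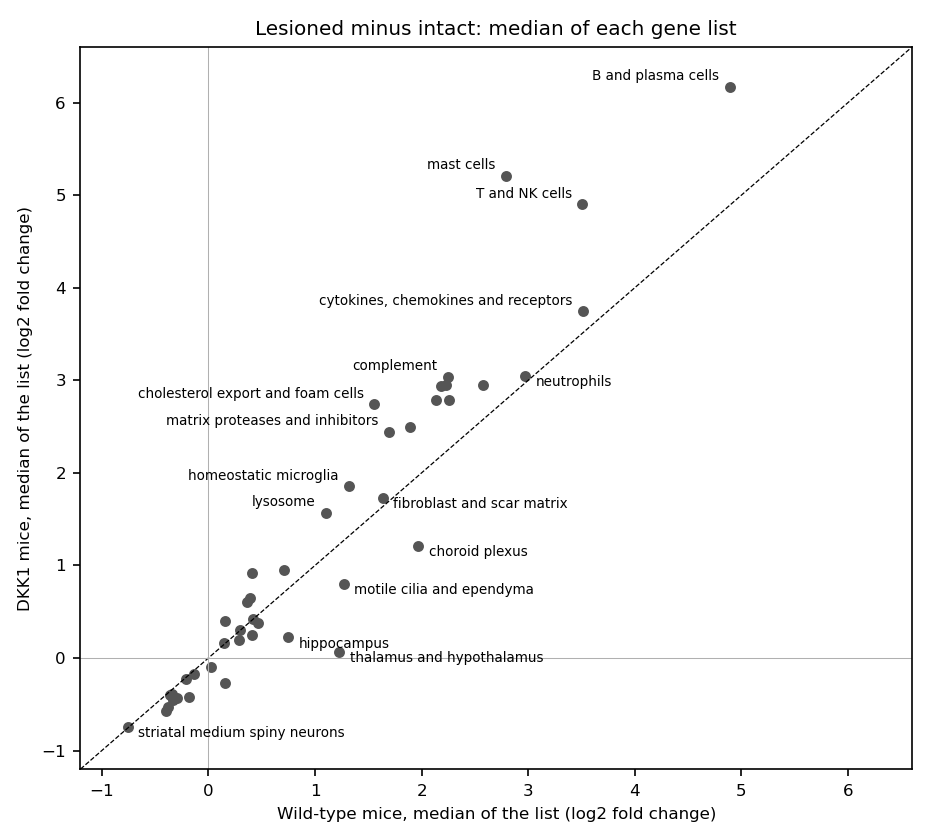
Each point is 1 of the 44 gene lists, with the median log2 fold change of the lesioned over the intact hemisphere in wild-type mice on the horizontal and in DKK1 mice on the vertical axis; the dashed line marks equal medians. Lymphocyte, mast cell, complement and cholesterol lists lie above the line, choroid plexus and thalamus lists below it, and those of striatal neurons close to it.

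Tested gene by gene, the lesion effect of DKK1 mice differed from that of wild-type mice for 1 of 17612 genes (0.00568%), with 1689 at an unadjusted p under 0.05. That gene was H2-T-ps, listed as protein-coding but named as a pseudogene of the class I region (chromosome 17, 36109030 to 36111676, minus strand), at 1.03, 1.11 and 0.916 CPM in the intact and 5.87, 7.67 and 7.57 CPM in the lesioned libraries in DKK1 mice and at 1.91, 1.45 and 1.6 CPM in the intact and 1.65, 1.74 and 2.17 CPM in the lesioned wild-type libraries (2.63 ± 0.28 in the difference of the log2 fold changes, edgeR adjusted p = 0.0148). Wild-type levels overlapped between hemispheres and DKK1 levels did not, and reads of near-identical H2 genes may be shared with it. The call of H2-T-ps was lost by limma-voom (adjusted p = 0.0616) and, in edgeR, without DKK1 contralateral 1, 2 or 3, DKK1 ipsilateral 2 or 3, or wild-type ipsilateral 2 (adjusted p = 0.0677 to 0.122), and no gene was called in these fits. The count depended on the libraries and the block: 288 genes (30 of them smaller in DKK1 mice, the rest larger) differed with the replicate number as a block, and 393 (346 larger, 47 smaller) without wild-type ipsilateral 1. Both of these fits called 129 genes in common, 121 larger and 8 smaller in DKK1 mice. Those larger include H2-T-ps, H2-T23, H2-DMb1 and further genes of the H2 family, and the cause was not tested. The block called 10 of 19 complement genes, 10 of 33 lysosomal genes, 5 of 25 disease-associated microglia genes and 5 of 26 reactive astrocyte genes, against 1.64% of all genes tested. It called 0 of 24 T and NK cell genes, 1 of 15 B and plasma cell genes, 0 of 8 mast cell genes and 0 of 20 Wnt/beta-catenin targets, and without wild-type ipsilateral 1 (2.21% of all genes) 5 complement and 13 lysosomal genes were called. Genes named above whose lesion effect was called larger in DKK1 mice with the block include C1qa (edgeR adjusted p = 0.00528), Aspg (0.0104), Ctsd (0.0186) and Apoe (0.0454).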

How the data were processed

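RNA of 12 brain hemisphere samples was sequenced after a directional library kit, per the labels' protocols. The deposited files hold, for each gene, its position with raw counts in 1 table and TPM values in another. The submitters' processing notes name STAR 2.7.0f, HOMER 4.11, DESeq2 and mm10; their roles, settings, annotation and use of strand were not given in these sources, so reads of overlapping or near-identical genes may be shared. Groups came from the labels. Counts were fitted with edgeR 4.0.16 (R 4.3.3; TMM scaling, filterByExpr with a minimum count of 10, robust quasi-likelihood) over all 4 groups, which share 1 estimate of the spread, on 17612 of 25124 genes. Standard errors are the log2 fold change over the root of the F statistic, and p-values were adjusted by Benjamini-Hochberg over all genes tested. Alternatives were DESeq2 1.42.0, limma-voom and limma on log2(TPM + 0.5) (limma 3.58.1), upper-quartile scaling, no filter, the DKK1 libraries alone, a test against a fold of 1.5, the replicate number as a block, and each library left out.

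Replicate numbers are from the labels. Deviations of same-numbered libraries from their group means correlated at 0.276, 0.126 and 0.105 in DKK1 and 0.488, 0.310 and 0.297 in wild-type mice. DKK1 ipsilateral 3 correlated more with DKK1 contralateral 2 (0.172). The numbers may thus pair the samples, which the labels do not say, and they were fitted as a block among the alternatives. The main fit held no block, so its standard errors and p-values leave such a pairing out. Lesion calls of printed genes that the block changed are given beside them. On simulated counts of 17452 genes for the DKK1 comparison, the fit called 55.2% of genes changed 1.5-fold, 76.1% of those changed 2-fold and 95.5% of those changed 4-fold, with 7 false calls. Only 67, 67 and 66 genes were changed at these folds, all with a mean above 1 CPM, and every other gene was left level. In the measured libraries far more genes differed and several stood near 0 in intact tissue, so these shares need not hold there.

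The comparison and the 44 gene lists were chosen with earlier results of these data known. Named were Dkk1, the 15 largest changes and 10 largest length-scaled level changes each way, and 5 members a list by p-value. Other members, such as those that did not pass or moved against their list, were chosen after their values were seen. Some genes that the rule or the lists hold are not reported here.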

Additional observations from a re-analysis of the deposited data

Results flagged for a closer look

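The lesion effect on H2-T-ps differed between genotypes by 2.63 ± 0.28 on the log2 scale (DKK1 minus wild type, edgeR adjusted p = 0.0148), with 2.78 ± 0.20 in DKK1 and 0.16 ± 0.20 in wild-type mice. Each of the 3 lesioned DKK1 libraries was above each of the 3 intact ones. The difference between genotypes did not pass by limma-voom (H2-T-ps, adjusted p = 0.0616), nor in 6 of the 12 edgeR fits that left out 1 library (adjusted p = 0.0677 to 0.122), with differences of 2.53 to 2.67 in those 6.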

How the results depend on the processing

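Across the alternatives other than the test against a fold of 1.5, the genes called higher in DKK1 mice numbered 4147 to 5363 and those called lower 3075 to 4782. Tested against a fold of 1.5, 2279 were higher and 74 lower, and 1532 were called in wild-type mice against 6546; this test asks for a larger change by construction. With the replicate block the counts were 5363 and 4540 in DKK1 and 7982 in wild-type mice, and the block changed the lesion call of no gene printed above, and moved no count of a list by over 1.5 times, other than those given beside the result and these: 1 matrix protease or inhibitor and 1 iron gene lower, and 2 cortical, 3 thalamus or hypothalamus and 2 hippocampus genes higher. The 1 fall among cilia genes was lost without DKK1 contralateral 2 or 3 or DKK1 ipsilateral 1 or 2, and without DKK1 contralateral 2 there were 2 falls among Wnt targets. The number of genes whose lesion effect differed between genotypes was 1, and became 288 with the replicate block, 65 by DESeq2, 9 by limma on TPM and 0 by limma-voom (1402 at an unadjusted p under 0.05), and stayed at 1 in the others that hold both genotypes. With 1 library left out it ranged from 0 to 393: it was 0 without DKK1 contralateral 1, 2 or 3, DKK1 ipsilateral 2 or 3 or wild-type ipsilateral 2, 1 without wild-type contralateral 2 or wild-type ipsilateral 3, 17 without DKK1 ipsilateral 1, 4 without wild-type contralateral 3, 2 without wild-type contralateral 1 and 393 without wild-type ipsilateral 1; the cause was not tested. Of 250 genes named by the rule and called, 241 were called in every alternative other than the test against a fold, 94 were lost in that test and 0 reversed. The 9 lost elsewhere were Cma1, Hapln4, Hapln1, Egr3, Jun, C1ql3, Cldn1, Enpp2 and Slc4a1. With 3 libraries a group, small changes can be missed, and low counts limit lymphocyte and mast cell genes.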
